A study of Mus musculus with 36 samples.

Results

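Intraepithelial lymphocytes (IELs) are T cells that live between the epithelial cells of the gut, and 10 genes of their homing and retention are described here: the integrin chains Itgae, Itgb7 and Itga4, the adhesion partner Cdh1, the chemokine receptors Ccr9 and Cxcr6, their ligands Ccl25 and Cxcl16, and the receptors S1pr1 and Gpr18. They were picked by name for their known roles, with earlier results of these data known. All 10 were found among the 27179 genes of the whole-tissue and lymphocyte count tables and the 78275 genes of the CD8 tables. The study set mice with the long noncoding RNA lnc13 (wild type, WT) against mice without it (knockout, KO). Gluten-challenged lnc13-WT-DQ8 and lnc13-KO-DQ8 mice gave RNA of whole small intestine, of lamina propria lymphocyte (LPL) preparations and of IEL preparations, with 2 WT and 2 KO libraries each. DQ8 is named in the labels of both genotypes, and is a human class II molecule linked to coeliac disease. CD8 IELs from lnc13-WT and lnc13-KO mice, whose titles do not name DQ8, gave 6 unstimulated libraries, 3 per genotype, and as many in a set labelled IL15. The series describes that culture as 48 hours in IL-15, a cytokine that sustains and activates IELs. Of the 36 samples, 24 were analysed here. Age, the deleted segment and the number of animals behind a library are not given in the sources used here, so p-values measure the spread between these libraries, which may be partly technical. The level of lnc13 itself was not analysed here, so the genotypes rest on the labels.

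T cells enter the small intestine when the integrin made of Itga4 and Itgb7 binds its ligand on gut vessels and when Ccr9 senses Ccl25, a chemokine of small-intestinal epithelium. Once in the epithelium, many switch to the integrin made of Itgae, which encodes the chain CD103, and Itgb7. That integrin binds E-cadherin, the product of Cdh1, on epithelial cells. Cxcr6 and its membrane-bound ligand Cxcl16 also serve residency, Gpr18 is a G protein-coupled receptor with a reported role in filling the IEL compartment, and S1pr1 draws lymphocytes back out of tissue and is kept low in resident cells.

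The promoters of Itga4, Ccr9, Cxcr6 and Gpr18 are shown because theirs were the available windows that lie outside the gene body. All IEL libraries lay above all tissue libraries for these T cell genes, as they did for Itgae and Itgb7, whose promoters are not shown. RUNX factors, E-box binders and nuclear receptors are known regulators of T cell homing genes. Each is the 250 bases before the annotated gene start in the RefSeq annotation of GRCm38.p6. RefSeq windows were matched for 6 of the 10 genes, and 4 of these lie outside the gene body. Itga4 is shown from chr2:79255176-79255425 on the plus strand, Ccr9 from chr9:123766961-123767210 on the plus strand, Cxcr6 from chr9:123806227-123806476 on the plus strand and Gpr18 from chr14:121915889-121916138 on the minus strand. Capitals mark a match to the RUNX motif TGTGGT or its reverse complement ACCACA.
Itga4 promoter: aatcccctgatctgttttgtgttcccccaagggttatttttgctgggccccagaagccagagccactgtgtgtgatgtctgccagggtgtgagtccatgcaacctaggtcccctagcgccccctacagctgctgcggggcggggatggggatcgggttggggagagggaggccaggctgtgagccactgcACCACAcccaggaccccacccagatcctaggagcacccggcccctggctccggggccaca
Ccr9 promoter: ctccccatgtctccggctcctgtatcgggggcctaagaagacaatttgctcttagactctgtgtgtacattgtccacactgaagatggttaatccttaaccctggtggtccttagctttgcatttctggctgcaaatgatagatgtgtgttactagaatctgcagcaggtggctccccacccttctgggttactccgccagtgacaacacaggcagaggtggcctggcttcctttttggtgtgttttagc
Cxcr6 promoter: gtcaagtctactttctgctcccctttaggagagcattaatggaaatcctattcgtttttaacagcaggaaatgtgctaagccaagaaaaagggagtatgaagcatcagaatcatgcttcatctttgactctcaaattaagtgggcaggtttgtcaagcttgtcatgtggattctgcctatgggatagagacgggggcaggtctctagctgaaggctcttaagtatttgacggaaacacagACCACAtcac
Gpr18 promoter: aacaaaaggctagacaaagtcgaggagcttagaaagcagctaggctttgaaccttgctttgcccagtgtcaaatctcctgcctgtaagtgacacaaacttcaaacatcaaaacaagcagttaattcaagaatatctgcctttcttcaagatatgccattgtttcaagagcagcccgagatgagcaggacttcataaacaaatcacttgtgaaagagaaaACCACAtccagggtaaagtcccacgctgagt
The RUNX letters lie 60 bases before the start of Itga4, 10 bases before that of Cxcr6 and 31 bases before that of Gpr18. They occur in 14.0% of all 32851 promoter windows of this length, on either strand. Ccr9 holds no match to them, and holds the E-box CAGGTG 85 bases before its start. The E-box letters CACCTG or CAGGTG are found in 17.2% of windows. The other motifs searched on both strands were the CDX motif TTTATNG, present in 9.81% of windows, the GATA motif GATAA, present in 22.6%, and the nuclear receptor half-site AGGTCA, present in 14.0%. None of these matched in the windows shown. A window of Ccl25 inside its gene body, not shown, held a CDX match and the nuclear receptor half-site. The CDX letters include the GATA letters for 1 choice of N, and no other motif contains another. A match describes letters, not a bound site. Ccr9 and Cxcr6 are neighbours on chromosome 9, with 23019 bases between the end of the one gene and the start of the other.

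Each bulk library held 10186522 to 13620975 reads assigned to genes. The unstimulated CD8 libraries had 16428511 to 23762128, and those with IL-15 had 14724754 to 26997371. The preparations did not all carry the cells of their names in full. T cell markers (13 genes) summed to 72.0 to 214 CPM (counts-per-million) in tissue and 521 to 2044 in IEL. In LPL they summed to 191 in WT replicate 1 and to 3.29 to 20.9 in the other 3 libraries, where the T cell receptor component Cd3e was at 0.346 to 1.82 CPM. The same LPL library also stood apart in B and plasma cell markers (5171 against 475 to 2148 CPM) and in macrophage and dendritic cell markers (191 against 10.1 to 10.6). All 4 LPL libraries held exocrine pancreas transcripts, at 5721 to 11581 CPM against 23.8 to 92.8 in tissue. Epithelial markers (12 genes) summed to 12295 to 13984 CPM in the IEL libraries, so these are IELs together with epithelium. In bulk RNA of this kind, fewer cells of a type and less RNA per cell cannot be told apart. In IEL, replicate 2 of each genotype held more T cell RNA than replicate 1, with Cd3e at 78.8 and 55.3 CPM against 26.7 and 30.2. Among the IL-15 libraries WT replicate 3 stood apart, with Cd8b1 at 43429 normalised counts against 1681 to 6394 in the other 5. Its Trdc, the constant gene of the gamma-delta T cell receptor, was at 1897 against 26591 to 43735. In the 6 unstimulated libraries, normalised apart, Cd8b1 was at 19676.5 to 33312 and Trdc at 2.035 to 992. The part of this T cell content in differences between the CD8 sets was not tested.

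Itgae, which encodes the chain CD103 of the integrin that binds E-cadherin, had the largest IEL to tissue ratio of the 10 genes. It is Entrez gene 16407 at chr11:73090505-73147449 (GRCm38.p6, as for all positions here), and its span overlaps Haspin. Its level was 72.9, 264, 88.2 and 177 CPM in IEL (WT replicates 1 and 2, then KO replicates 1 and 2, the order used throughout). In tissue the values were 8.11, 10.8, 17.3 and 7.06, and in LPL they were 23.3, 5.13, 4.07 and 3.34. Every IEL library lay above every other library, and both IEL replicates numbered 2 were the highest. The mean over 4 IEL libraries was 13.9 times that of tissue and 16.8 times that of LPL. In a joint edgeR quasi-likelihood fit of the 12 libraries, Itgae rose by 3.80 on the log2 scale from tissue to IEL (SE 0.60, adjusted p = 0.00146) and by 4.37 from LPL to IEL (SE 0.62, adjusted p = 0.00205). Both calls were kept when each library was left out in turn. By group mean, IEL WT stood first and IEL KO second with overlapping libraries, then, with no overlap, LPL WT, tissue KO and tissue WT, whose libraries overlapped in turn, and last, again with no overlap, LPL KO.

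Itgb7 (Entrez gene 16421, chr15:102215994-102233405) is the chain shared by the integrin of Itgae and the gut-homing integrin. It read 21.5, 98.1, 26.7 and 56.0 CPM in IEL, 9.06, 8.41, 9.57 and 4.67 in tissue, and 39.9, 4.54, 5.63 and 5.13 in LPL. All IEL libraries were above all tissue libraries, while LPL WT replicate 1 reached into the IEL range. Itgb7 rose by 2.65 from tissue to IEL (log2, SE 0.69, edgeR adjusted p = 0.0134), a call that fell just short without tissue KO replicate 2 (adjusted p = 0.0503). Between LPL and IEL the difference was 2.19 (SE 0.67, adjusted p = 0.0507), and without LPL WT replicate 1 it was 3.32 and passed (adjusted p = 0.00891).

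Itga4 (Entrez gene 16401, chr2:79255426-79333114, overlapping Cerkl) pairs with Itgb7 for entry from the blood. Its level was 11.7, 37.6, 10.4 and 27.0 CPM in IEL, 5.52, 5.11, 4.24 and 8.86 in tissue, and 61.2, 4.54, 6.58 and 4.94 in LPL. The highest value of all 12 libraries was therefore in LPL WT replicate 1, the library with the most T, B and myeloid RNA among the LPL samples. The IEL libraries lay above all tissue libraries, but the difference of 1.86 (log2, SE 0.73) did not pass (edgeR adjusted p = 0.0634), whereas DESeq2's Wald test called it (adjusted p = 0.0175). Against LPL the difference was 0.64 (SE 0.70, adjusted p = 0.545), and without LPL WT replicate 1 it was 2.06 (adjusted p = 0.0331).

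**Figure D1:**
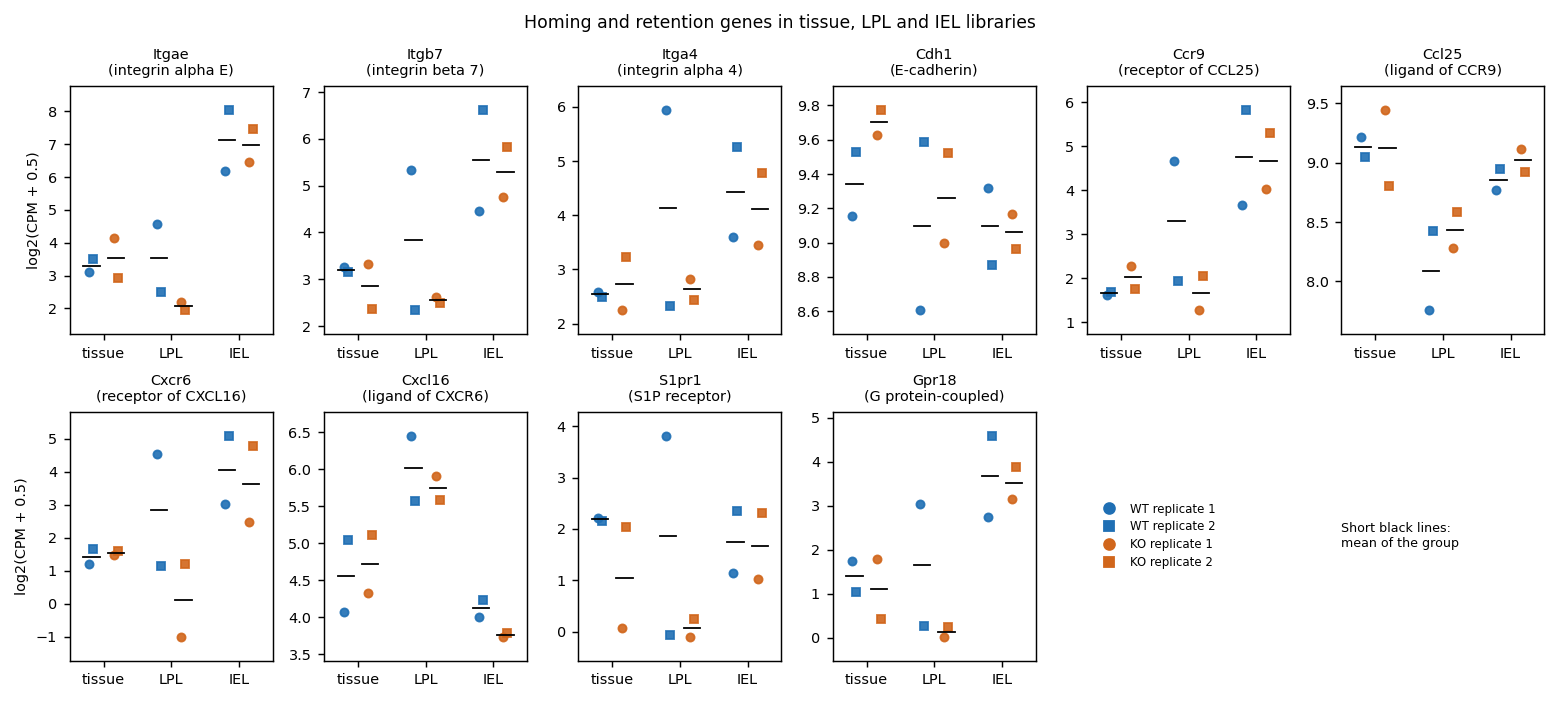
Log2(CPM + 0.5) of the 10 genes in each of the 12 tissue, LPL and IEL libraries, by genotype, each panel on its own scale; points are libraries and short lines the mean of the group on the log scale. Itgae in IEL (72.9 to 264 CPM) lies above every tissue and LPL library, and LPL WT replicate 1 lies above the other LPL libraries for all 7 receptors and integrin chains.

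Cdh1 (Entrez gene 12550, chr8:106603350-106670247), the epithelial partner of CD103, was abundant in all preparations. In IEL it read 638, 467, 574 and 498 CPM, in LPL 389, 770, 512 and 735, and in tissue 569, 739, 790 and 875. The ranges of the 3 preparations overlap, and none of the 3 comparisons passed (edgeR adjusted p = 0.168 for IEL against tissue, 0.321 for LPL against tissue and 0.708 for IEL against LPL).

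Ccr9 (Entrez gene 12769, chr9:123767211-123783457, overlapping the noncoding gene Gm17021) is the receptor that directs T cells to the small intestine. It read 12.1, 56.3, 15.7 and 39.0 CPM in IEL, 2.59, 2.72, 4.35 and 2.87 in tissue, and 24.7, 3.31, 1.91 and 3.65 in LPL. IEL lay above tissue without overlap, by 9.83 times in the mean, and 1 LPL library, WT replicate 1, fell inside the IEL range. Ccr9 rose by 3.30 from tissue to IEL (log2, SE 0.71, edgeR adjusted p = 0.00606), with the call kept in all 8 fits that left out a library. From LPL to IEL it rose by 2.29 (SE 0.67, adjusted p = 0.0439). That call was lost without LPL WT replicate 2, LPL KO replicate 1, LPL KO replicate 2, IEL WT replicate 2, IEL KO replicate 1 or IEL KO replicate 2 (adjusted p = 0.0557 to 0.186).

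Ccl25 (Entrez gene 20300, chr8:4325205-4360020, overlapping LOC108167518), the ligand, was lowest in LPL. It read 595, 528, 697 and 446 CPM in tissue, 436, 492, 556 and 484 in IEL, and 216, 342, 311 and 383 in LPL. Every LPL library was below every tissue and IEL library, and tissue and IEL overlapped. Ccl25 fell by 0.86 from tissue to LPL on the log2 scale (SE 0.21, edgeR adjusted p = 0.00664), a fall kept in all 8 fits without a library. IEL and tissue differed by -0.21 (SE 0.20, adjusted p = 0.432), and IEL and LPL by 0.66 (SE 0.20, adjusted p = 0.052). Epithelial markers summed to 10982 to 14671 CPM in LPL, 12295 to 13984 in IEL and 25663 to 35354 in tissue, and their part, and that of the pancreas transcripts of LPL given above, in the lower Ccl25 was not tested. Markers of gut region also differed between the preparations. The 8 genes of that list summed to 5550 to 7790 CPM in tissue, 3844 to 5707 in IEL and 524 to 807 in LPL. The list mixes proximal and distal genes, so its sum can hide opposite changes. From tissue to IEL 5 of the 8 rose and 2 fell (edgeR), against 21.9% and 23.1% of all genes. Fabp6, a bile acid-binding protein of the ileum, was at 3730 to 5739 CPM in tissue and 77.9 to 214 in the LPL and IEL libraries, and Lct, the lactase of the upper small intestine, was at 1123 to 1826 in IEL, 0.33 to 211 in tissue and 6.24 to 52.9 in LPL. The part of gut region in the Ccl25 values, and in the differences of the other members between preparations, was not tested either.

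Cxcr6 (Entrez gene 80901, chr9:123806477-123811754, overlapping Fyco1), a receptor of tissue-resident T cells, read 7.58, 33.4, 5.10 and 27.3 CPM in IEL, 1.81, 2.64, 2.28 and 2.51 in tissue, and 22.8, 1.69, 0 and 1.79 in LPL. The 0 in LPL KO replicate 1 is no read at all, where LPL WT replicate 1 had 304 reads. Cxcr6 rose by 2.97 from tissue to IEL (log2, SE 1.03, edgeR adjusted p = 0.0409) with no overlap. The call was lost when any 1 of the 4 tissue libraries was left out, without IEL WT replicate 2 and without IEL KO replicate 2 (adjusted p = 0.0929 to 0.143). Against LPL the difference was 2.41 (SE 1.00, adjusted p = 0.122), and without LPL WT replicate 1 it was 3.82 (adjusted p = 0.0439).

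Cxcl16 (Entrez gene 66102, chr11:70454389-70459984, overlapping Zmynd15), its ligand, was highest in LPL. It read 86.95, 47.2, 59.8 and 47.5 CPM in LPL, 16.4, 32.4, 19.7 and 34.0 in tissue, and 15.6, 18.3, 12.9 and 13.4 in IEL. All LPL libraries were above all others, by 2.36 times the tissue mean and 4.02 times the IEL mean. Cxcl16 rose by 1.23 from tissue to LPL (log2, SE 0.28, edgeR adjusted p = 0.0055) and was lower by 2.01 in IEL than in LPL (log2 -2.01, SE 0.29, adjusted p = 0.00219), both kept whichever library was left out. LPL WT replicate 1, with macrophage and dendritic cell markers of 191 CPM, had the highest value. The 3 LPL libraries with such markers at 10.1 to 10.6 CPM held 47.2 to 59.8 CPM of Cxcl16. The part of these markers, and of the pancreas transcripts of LPL, in the Cxcl16 values was not tested. The smaller difference of -0.78 between IEL and tissue (SE 0.28, adjusted p = 0.0496) was lost without tissue WT replicate 2, tissue KO replicate 2 or any 1 of the 4 IEL libraries (adjusted p = 0.0779 to 0.179), with a filter at a mean of 5 CPM (0.0563) and with a replicate block (0.0688).

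Gpr18 (Entrez gene 110168, chr14:121911434-121915888, overlapping Ubac2 and Gm46485) was higher in IEL by mean CPM, like Itgae and Ccr9. Its ratio to T cell RNA is given below. It read 6.24, 23.4, 8.37 and 14.1 CPM in IEL, 2.85, 1.57, 2.94 and 0.838 in tissue, and 7.73, 0.714, 0.520 and 0.680 in LPL. It rose by 2.65 from tissue to IEL (log2, SE 0.74, edgeR adjusted p = 0.0182) and by 3.00 from LPL to IEL (SE 0.76, adjusted p = 0.0247). The first call was lost without tissue WT replicate 2, tissue KO replicate 2, IEL WT replicate 2 or IEL KO replicate 2, and the second without LPL KO replicate 1, LPL KO replicate 2, IEL WT replicate 2 or IEL KO replicate 2 (adjusted p = 0.0511 to 0.0674 for the first and 0.0813 to 0.105 for the second).

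S1pr1 (Entrez gene 13609, chr3:115710433-115715055), the exit receptor, was the only 1 of the 7 lymphocyte genes whose IEL and tissue libraries overlapped. It read 1.69, 4.60, 1.53 and 4.42 CPM in IEL, 4.14, 3.96, 0.543 and 3.59 in tissue, and 13.5, 0.454, 0.433 and 0.680 in LPL. IEL and tissue differed by 0.09 (log2, SE 0.89, edgeR adjusted p = 0.948). The 3 low LPL values rest on 5 to 11 reads. Without LPL WT replicate 1 the LPL level was lower than tissue by 2.47 (log2 -2.47, adjusted p = 0.0284), against -0.53 with it (adjusted p = 0.64).

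In counts, 5 of the 10 genes rose and 1 fell from tissue to IEL, where 21.9% of all 14716 genes tested rose and 23.1% fell (45% in all). From tissue to LPL 1 rose and 1 fell, against 27.3% and 28% of all genes (55.3%). From LPL to IEL 3 rose and 1 fell, against 11.5% and 7.92% (19.4%). The median log2 difference of the 10 was 2.26, 0.09 and 1.42 in the same order, and of all genes 0.05, 0.03 and -0.03. All 10 passed the filter on low counts. By libraries that do not overlap, 6 of the 10 were higher in IEL than in tissue and 0 lower, against 22.9% of all genes in each direction. From tissue to LPL 1 was higher and 1 lower (26.5% and 25.1% of all genes), and from LPL to IEL 2 were higher and 1 lower (17.3% and 15.1%). The members, and the lists below, were chosen with earlier results of these data known, so such counts describe them and test nothing.

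Whether the receptors kept pace with T cell RNA was read from the log2 ratio of each to the mean of Cd3e, Cd3d, Cd3g, Cd2 and Lck in the same library. Itgae exceeded that reference by 2.35 ± 0.09 in IEL (SD, n = 4 libraries, as for the values that follow), by 1.20 ± 0.42 in tissue and by 1.66 ± 0.67 in LPL. All 4 IEL ratios (2.27 to 2.47) were above all tissue ratios (0.70 to 1.64), and they varied little although Itgae itself ranged from 72.9 to 264 CPM. For Itgb7 the ratio was 0.72 ± 0.17 in IEL and 0.81 ± 0.36 in tissue, and for Ccr9 it was 0.01 ± 0.19 and -0.38 ± 0.31, with overlapping ranges for both genes. In LPL the Itgb7 ratio was 2.06 ± 0.63, above all IEL and tissue libraries. Gpr18 stood at -1.11 ± 0.19 in IEL, -0.97 ± 0.34 in tissue and -0.24 ± 0.43 in LPL. Its IEL and tissue ranges overlapped, and its IEL ratios lay below all LPL ratios. Cxcr6 stood at -0.85 ± 0.5 in IEL and -0.73 ± 0.57 in tissue, also with overlap. Its LPL ratio was 0.33 ± 0.72, with a range that overlapped both. S1pr1 went the other way from Itgae, at -3.00 ± 0.24 in IEL against -0.60 ± 1.40 in tissue and -0.17 ± 0.58 in LPL, with every IEL library below every other. The reference holds T cell genes only. Smooth muscle and stroma markers summed to 705 to 3304.5 CPM in tissue, 10.6 to 15.5 in IEL and 18.2 to 205 in LPL. For B and plasma cell markers the sums were 77.7 to 676, 70.3 to 197 and 475 to 5171. The part of these cells in the S1pr1 ratios was not tested. Ccr9 stood at 1.34 ± 0.20 in LPL, above all IEL and tissue libraries. Itga4 stood at 2.25 ± 0.76 in LPL, -0.43 ± 0.10 in IEL and 0.42 ± 0.78 in tissue. The T cell reference was near its floor in 3 of the 4 LPL libraries. Its geometric mean there was 0.773 to 1.72 CPM with the pseudocount of 0.5 included. The part of this low reference in the LPL ratios was not tested. Of 30 such comparisons, 15 reached 0.0286, the smallest 2-sided p an exact permutation test of 4 against 4 can give, and none stayed under 0.05 after adjustment (0.0572). With that floor, no comparison could pass unless most of the 30 reached it too. The adjusted outcome therefore says little about any 1 gene.

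**Figure D2:**
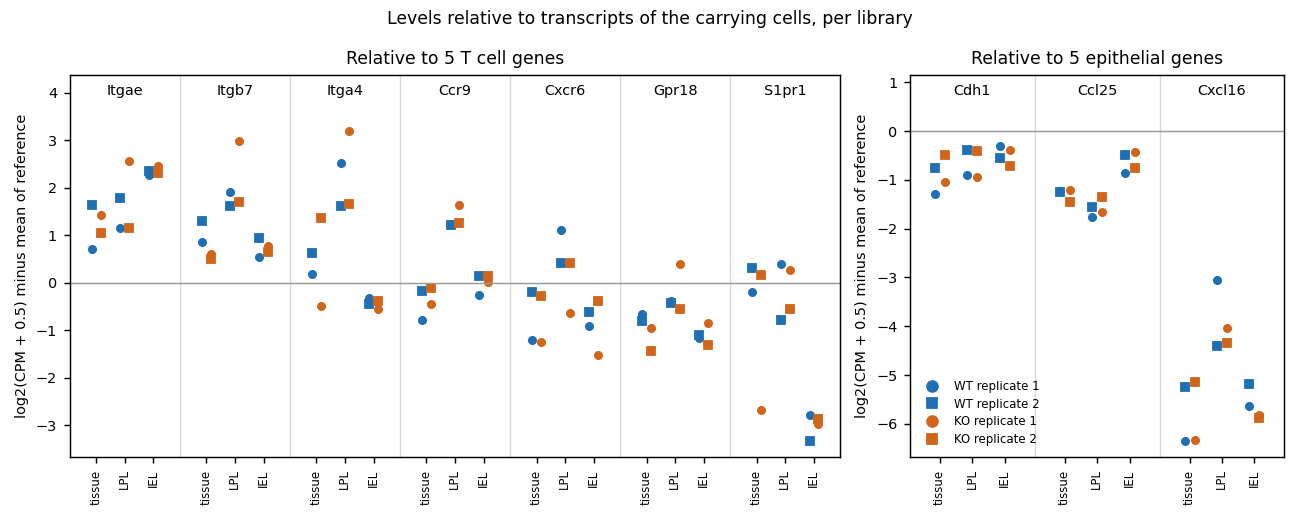
Log2(CPM + 0.5) of the 7 lymphocyte genes minus the mean of 5 T cell genes (left panel) and of Cdh1, Ccl25 and Cxcl16 minus the mean of 5 epithelial genes (right panel), in tissue, LPL and IEL libraries; points are libraries. Itgae in IEL lies at 2.27 to 2.47 and S1pr1 in IEL lies below all tissue and LPL libraries.

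For the partners, the reference was Epcam, Krt8, Krt18, Krt19 and Cdx2. Ccl25 stood at -0.64 ± 0.21 in IEL, above its -1.29 ± 0.12 in tissue and -1.58 ± 0.18 in LPL, and the IEL libraries overlapped neither. With Epcam alone as reference, the LPL minus tissue difference of Ccl25 turned from -0.30 to 0.80. Itgae changed likewise between IEL and LPL, from 0.69 to -0.15 when Cd3e alone was the reference.

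Among the genes of lymphocyte traffic outside the 10 members, 13 of 30 tested rose and 1 fell from tissue to IEL (edgeR, median 1.81), against 21.9% and 23.1% of all genes. Klf2, a transcription factor that drives S1pr1, rose by 2.92 (adjusted p = 8.55e-05), Ahr, a ligand-activated factor that IELs need, by 1.63 (adjusted p = 0.000356), and Gpr55, a lipid receptor, by 2.84 (adjusted p = 0.000476), while Itgb1, the common beta chain of many integrins, fell by 1.22 (adjusted p = 0.00212). From tissue to LPL 9 rose and 3 fell (median 0.70), against 27.3% and 28% of all genes, so the share that rose was near that of all genes. Klf2 rose by 4.52, Gpr55 by 1.88 and Itga2 by 1.10. From LPL to IEL 5 rose and 3 fell (median 0.65; 11.5% and 7.92% of all genes), the latter including Klf2 (-1.60) and Ccr10 (-2.80). Crtam, an adhesion receptor of cytotoxic T cells, rose by 5.03 (adjusted p = 0.00439) and Itga1, the collagen-binding chain of resident T cells, by 1.46 (adjusted p = 0.0115). Klf2 was at 24.6 to 38.2 CPM in IEL, 81.8 to 112 in LPL and 2.61 to 5.53 in tissue, whereas S1pr1 was at 0.433 to 0.680 CPM in 3 of the 4 LPL libraries. T cell markers summed to 3.29 to 191 CPM in LPL. Itgb1 was at 323 to 589 CPM in tissue, 194 to 249 in LPL and 172 to 206 in IEL. T cell markers rose in 12 of 13 genes from tissue to IEL (median 3.22) and from LPL to IEL (median 4.44). From tissue to LPL 0 rose and 4 fell (median -1.685). Their part in the traffic genes was not tested. The preparations differ in isolation as well as in cells, which cannot be told apart here.

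Partner genes of epithelium, stroma and vessels fell more often than they rose: of 28 tested, 3 rose and 15 fell from tissue to IEL and 1 rose and 18 fell from tissue to LPL (median -0.95 and -1.15). Of all genes, 21.9% rose and 23.1% fell in the first comparison and 27.3% and 28% in the second. Smooth muscle and stroma markers fell with them, 9 of 10 in both comparisons (median -9.40 in IEL and -4.73 in LPL), with sums of 705 to 3305 CPM in tissue, 10.6 to 15.5 in IEL and 18.2 to 205 in LPL. Of the 12 epithelial markers, 8 fell in IEL and 7 in LPL, and the part of either list in the partner genes was not tested. Epcam is both a partner gene and an epithelial marker, so these lists are not separate. The partner list also holds Ccl5, which cytotoxic T cells make. F11r, a tight junction protein, fell by 1.40 from tissue to IEL (adjusted p = 0.000152, edgeR), Epcam, an epithelial adhesion molecule, by 1.80 (adjusted p = 0.0005) and Jup, a junctional catenin, by 0.97 (adjusted p = 0.00116). Sphk2, which makes the ligand of S1pr1, rose by 0.78 (adjusted p = 0.00161). In LPL against tissue the fall was 1.15 for F11r, 1.66 for Sgpl1, which breaks down the S1pr1 ligand, 1.68 for Epcam and 1.34 for the chemokine Cx3cl1. From LPL to IEL 5 rose and 2 fell (median -0.14; 11.5% and 7.92% of all genes). Sgpl1 rose by 1.59 (adjusted p = 0.000904), Aldh1a1, a retinoic acid-making enzyme, by 3.21 (adjusted p = 0.00591) and Ccl5, a chemokine made by cytotoxic T cells, by 5.25 (adjusted p = 0.0104).

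In the CD8 tables values are the authors' normalised counts, and the sets were normalised apart and are described one at a time. Without stimulation, Itgae read 12940, 4374 and 7366 in WT and 14079, 12724 and 26489 in KO. Ccr9 read 16547, 6124 and 9754 in WT and 11346, 10632 and 11413 in KO, and Cxcr6 read 46517, 39962 and 16037 in WT and 30725, 31415 and 33510 in KO. All 3 genes were detected in every library. For Itgae the genotypes overlapped by a single KO library, replicate 2, which lay below WT replicate 1. Gpr18 read 9780, 9617 and 2025 in WT and 11739, 7961 and 6741 in KO, and Itga4 read 5875, 13733 and 4555 in WT and 7562, 10155 and 13282 in KO. Itgb7 was uneven, at 11482, 3872 and 4821 in WT and 87.5, 10195 and 11935 in KO, so KO replicate 1 held little of the partner chain of Itgae.

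S1pr1 was at 1.74, 4.69 and 0 in WT and 5.09, 175.7 and 1.33 in KO, so 5 of the 6 unstimulated libraries held almost none. Its regulator Klf2 was at 0 to 3.05 in all 6. KO replicate 2, the library with 175.7, was also the one with Ccl25 at 1577, against 1.33 to 10.01 in the other 5. Cxcl16 was at 0 to 3.00 and fell under the minimum mean of 5 normalised counts set for testing, so 9 of the 10 genes were tested in this set.

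Cdh1, which epithelium supplies to CD103, was itself read in the CD8 cells. Its values were 2096, 124.2 and 8364 in WT and 5813, 3206 and 4020 in KO. The 12 epithelial markers were far from absent in most of these libraries: their sum was 190.5, 7386 and 13496 in WT and 2016, 8652 and 5498 in KO. Epcam, 1 of the 12, was at 0 to 2.79 in 5 libraries and at 1265 in WT replicate 3. Sums of other marker lists were uneven in these libraries as well. They spanned 41.3 to 6740 for smooth muscle and stroma and 33.6 to 4491 for B and plasma cells. For macrophages and dendritic cells they spanned 25.2 to 1109, and for exocrine pancreas 9.32 to 1675. The ratio of Cdh1 to the sum of 12 epithelial markers was 0.0356 to 0.0477 in the IEL preparations, which hold epithelium. Among unstimulated CD8 libraries, WT replicate 1 had the highest ratio, with Cdh1 at 2096 and a marker sum of only 190.5. The ratio was 0.0168 and 0.620 in WT replicates 2 and 3 and 2.88, 0.371 and 0.731 in the KO replicates, so 5 of 6 libraries lay above the range of the IEL preparations and 1 below it. In the IL-15 set the ratio was 0.376 to 1.62, with Epcam at 668 to 3071. The marker sum in that set was 1303 to 3492, and the part of epithelial RNA in the Cdh1 values was not tested.

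**Figure D3:**
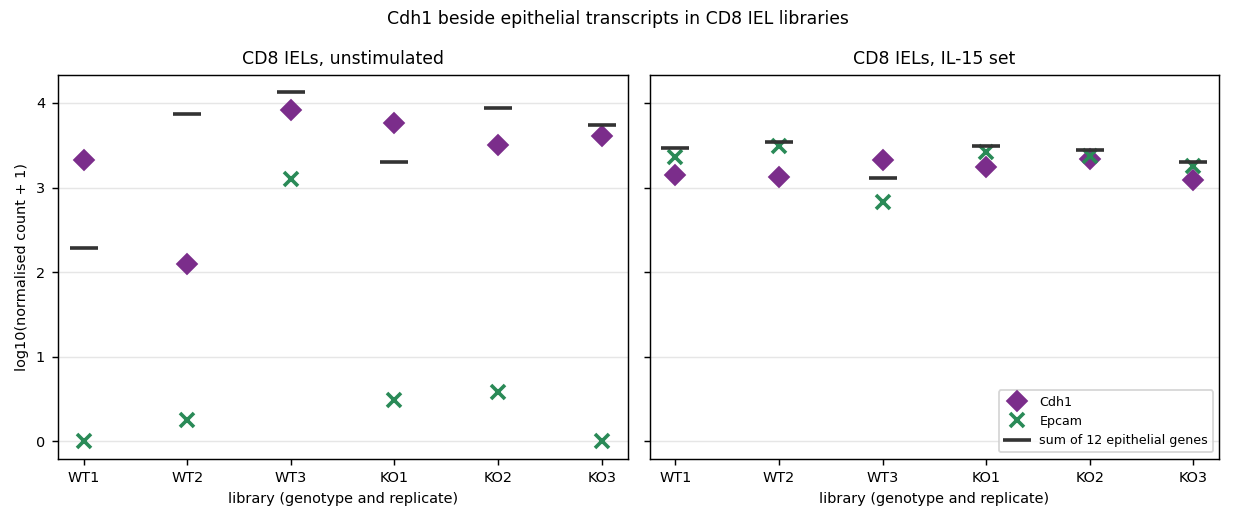
Cdh1 (diamonds), Epcam (crosses) and the sum of 12 epithelial genes (short lines) as log10(normalised count + 1) in each of 6 unstimulated CD8 IEL libraries (left panel) and 6 libraries of the IL-15 set (right panel). Without stimulation Cdh1 spans 124.2 to 8364 and the sum of the 12 genes 190.5 to 13496, and Epcam is at 0 to 2.79 in 5 of the 6 libraries.

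In the IL-15 set all 7 lymphocyte genes were detected in every library. Itgae read 12623, 11204 and 15154 in WT and 11018, 11700 and 8501 in KO, Itgb7 read 12808, 9988 and 15933 in WT and 11715, 13022 and 14081 in KO, and Ccr9 read 5064, 4262 and 7876 in WT and 4925, 4970 and 5465 in KO. Itga4 was at 1134, 823 and 4484 in WT and 1288, 1388 and 1223 in KO, and the high value is WT replicate 3, the library with high Cd8b1 and low Trdc. S1pr1 read 226, 180 and 62.4 in WT and 125, 58.2 and 418 in KO. Of the partners, Cdh1 was at 1230 to 2161, Ccl25 at 126 to 197 and Cxcl16 at 0 to 21.6. Cxcl16 was at 0 in WT replicate 3 and at 14.5 to 21.6 in the other 5 libraries.

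**Figure D4:**
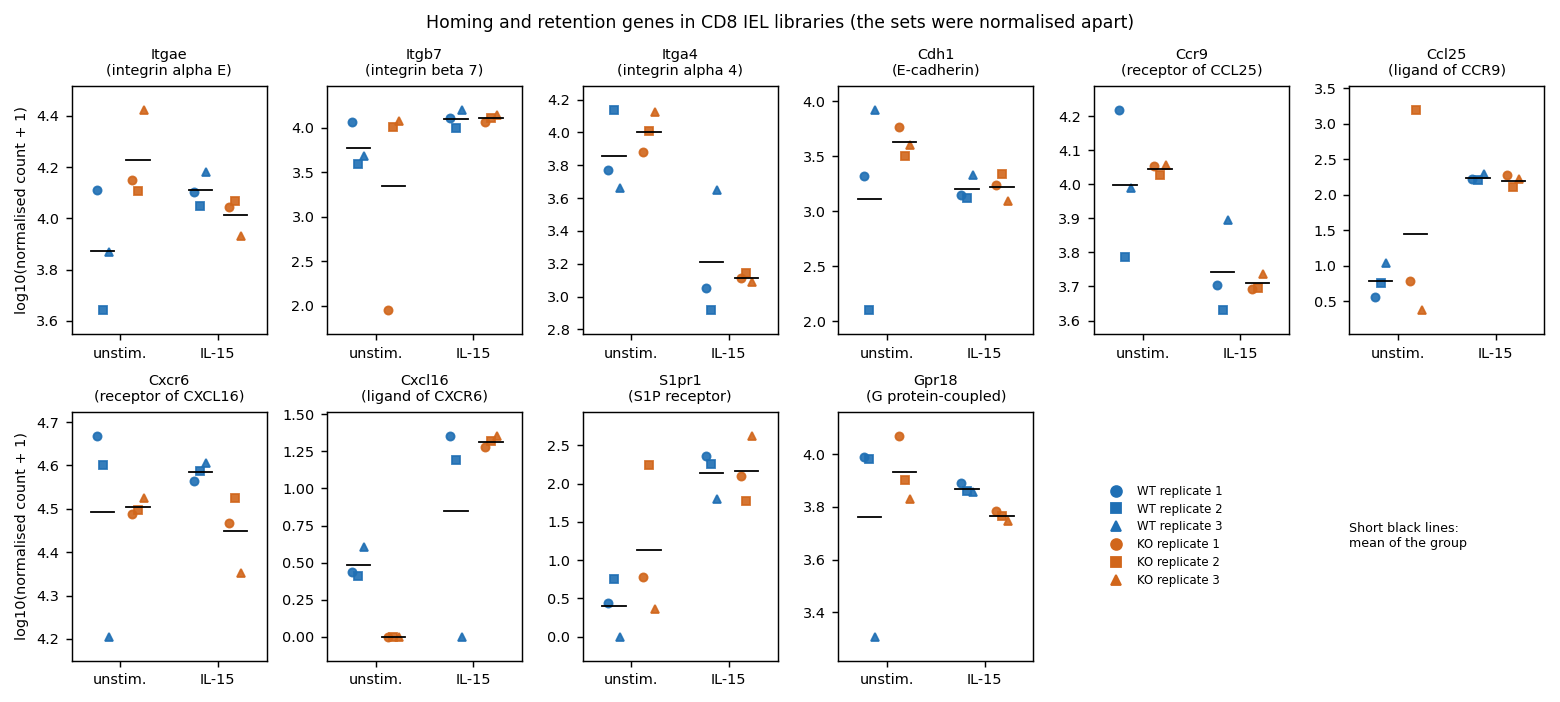
Log10(normalised count + 1) of the 10 genes in unstimulated CD8 IELs and in the IL-15 set, by genotype, each panel on its own scale; points are libraries, short lines the mean of the group on the log scale, and the sets were normalised apart. Unstimulated Itgb7 spans 87.5 to 11935, and IL-15 Itgb7 9988 to 15933.

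None of the 10 genes differed between KO and WT past an adjusted p of 0.05 in any of the 5 comparisons, and no gene of the whole tables did (0% of genes). In tissue, LPL and IEL every adjusted p of the members was 1 by edgeR, and in CD8 cells the smallest by limma were 0.903 without stimulation and 0.411 in the IL-15 set, the latter for Gpr18. DESeq2 called 6 genes in tissue, 1 in LPL and 1 in IEL, none of them a member. A fit of the 4 IEL libraries alone with a replicate block, added after seeing the data, called 73 genes, none of them a member, although the numbers are not shown to pair the libraries. At an unadjusted p under 0.05, members numbered 0 in tissue (3.15% of all genes), 6 in LPL (3.04%), 0 in IEL (0.815%), 1 of 9 in unstimulated CD8 cells (3.34%) and 2 in the IL-15 set (11.2%).

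The 6 in LPL were Itgae, Itga4, Ccr9, Cxcr6, S1pr1 and Gpr18, with KO minus WT values of -1.94, -2.51, -2.31, -3.67, -3.60 and -2.77 on the log2 scale (SE 0.83 to 1.52). Each rests on LPL WT replicate 1, whose values for these genes, given above, were the highest of the 4 LPL libraries. Without that library the values were -0.48, 0.34, -0.24, -0.81, 0.30 and -0.24, and 0 members remained at an unadjusted p under 0.05. The T cell markers were below 0 in 13 of 13 genes in the same comparison (median -3.12) and summed to 191 CPM in that library and 3.29 to 20.9 in the other 3, and their part in these values was not tested. Without overlap, Itgae and Gpr18 were lower in LPL KO than in WT and 0 members higher, against 8.62% and 9.89% of all genes.

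In IEL, the KO minus WT value of Itgae was -0.34 (log2, SE 0.74), of Itgb7 -0.53 (SE 0.90), of Ccr9 -0.32 (SE 0.90) and of Gpr18 -0.40 (SE 0.96), each smaller than its standard error. The T cell markers had a median of -0.30 in the same comparison, with 13 of 13 below 0, and their part was not tested. Replicate 2 exceeded replicate 1 in each genotype for Itgae, Itgb7, Itga4, Ccr9, Cxcr6, S1pr1 and Gpr18. Cxcl16 alone separated the genotypes there, at 15.6 and 18.3 CPM in WT against 12.9 and 13.4 in KO, where 12.3% of all genes had KO below WT without overlap and 14.8% above. In tissue Cdh1 and Ccr9 lay higher in KO without overlap (13.2% of all genes) and S1pr1 lower (12.3%), with Cdh1 at 790 and 875 CPM against 569 and 739. Epithelial markers lay higher there too, with sums of 33532 and 35354 CPM in KO against 25663 and 29926 in WT and 9 of 12 genes above 0, and their part in the Cdh1 values was not tested. The change of the KO effect between preparations passed for no gene (0% in each of 3 contrasts, edgeR), with 0.836%, 1.96% and 0.761% of genes at an unadjusted p under 0.05 for IEL against tissue, LPL against tissue and IEL against LPL.

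In unstimulated CD8 cells Itgae had a KO minus WT value of 1.17 (log2 of the normalised count plus 1, SE 0.46, unadjusted p = 0.0391 by limma, adjusted p = 0.903). In the IL-15 set it was -0.32 (SE 0.16, adjusted p = 0.495), and the difference between the sets was not tested. In the IL-15 set Gpr18 read 7806, 7227 and 7222 in WT and 6116, 5816 and 5570 in KO, all KO libraries below all WT libraries (log2 -0.35, SE 0.10, unadjusted p = 0.00903 by limma, adjusted p = 0.411). Cxcr6 read 36682, 38592 and 40335 in WT and 29374, 33541 and 22499 in KO, also with no overlap (log2 -0.46, SE 0.15, unadjusted p = 0.0194 by limma, adjusted p = 0.417). In this set 9.16% of all genes had KO below WT without overlap and 11.1% above. Among the 9 genes tested without stimulation, 0 separated the genotypes (3.81% of all genes above, 4.71% below). T cell markers were below 0 in 10 of 13 genes in the IL-15 comparison (median -0.23), 3 of them at an unadjusted p under 0.05, with sums of 738803, 778013 and 441696 in WT and 617716, 708284 and 404167 in KO. Cd3d, Lck, Cd8a and Trac had all KO libraries below all WT libraries, and the part of these markers in Gpr18 and Cxcr6 was not tested. Without WT replicate 3 the values were -0.37 for Gpr18 and -0.42 for Cxcr6. Of the other traffic genes, Crtam had the smallest p in the IL-15 set, at 3088, 2919 and 3315 in WT and 1934, 1941 and 2260 in KO (log2 -0.61, unadjusted p = 0.00143 by limma, adjusted p = 0.349).

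**Figure D5:**
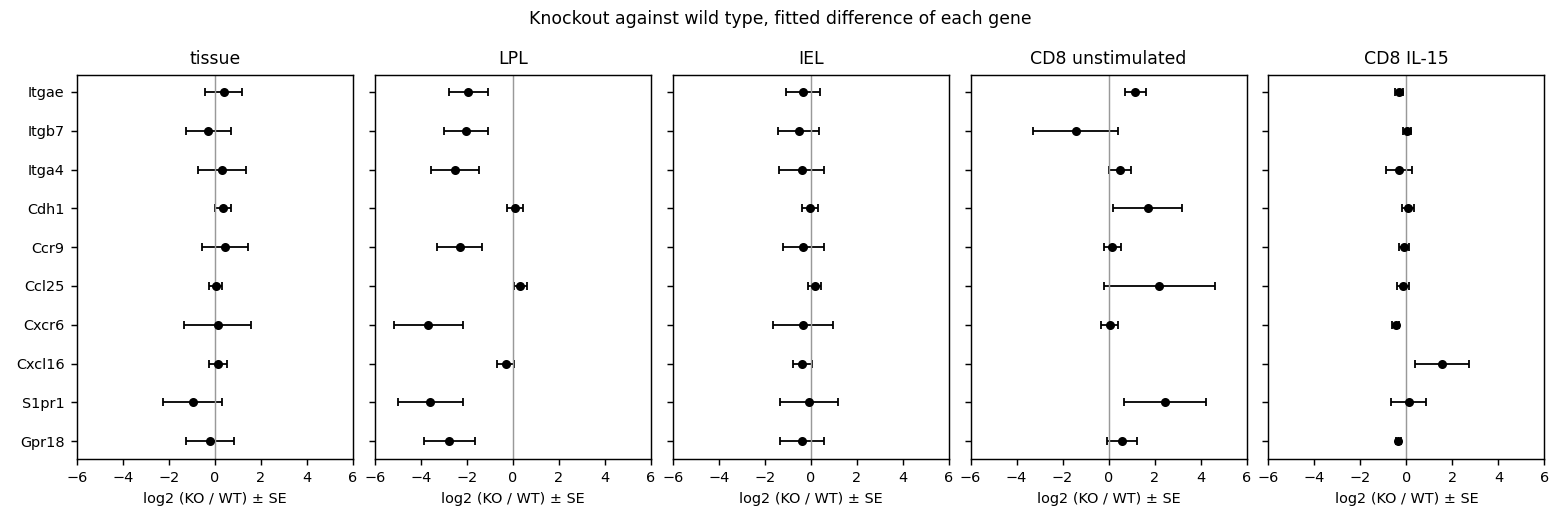
Fitted KO minus WT log2 difference of each gene (points) with its standard error (bars) in tissue, LPL, IEL and the CD8 sets; Cxcl16 was not tested in unstimulated CD8 cells. No difference passed an adjusted p of 0.05; the LPL values reach -3.67, that of Cxcr6, and rest on LPL WT replicate 1.

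None of the traffic and partner genes tested outside the members passed in any KO comparison. The median log2 difference of the traffic genes was -0.27 in tissue, -1.95 in LPL, -0.38 in IEL, 0.28 in unstimulated CD8 cells and -0.07 in the IL-15 set, and that of the 10 members 0.12, -2.18, -0.34, 0.58 and -0.13, where all genes had -0.01, 0.01, -0.02, -0.08 and 0.08. The smallest unadjusted p among them were those of F11r in tissue (log2 0.51, unadjusted p = 0.013 and adjusted p = 1 by edgeR), Ccr7 in LPL (-4.05, 0.0157 and 1), Cx3cl1 in IEL (0.53, 0.0714 and 1), Cadm1 in unstimulated CD8 cells (-3.36, 0.0413 and 0.903 by limma) and Crtam in the IL-15 set, given above. Ccr7, the lymph node homing receptor, was at 34.8 CPM in LPL WT replicate 1 and at 0.779 to 1.36 in the other LPL libraries.

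The genes whose levels followed Itgae most closely over the 12 tissue, LPL and IEL libraries, of 13595 compared, were Cd200r1 (Pearson r = 0.994), Itgad (0.988), Sla2 (0.986), Fasl (0.986) and Dock8 (0.985). For Ccr9 they were Adora2a (0.991), Ccl4 (0.983), Trat1 (0.983), Grap2 (0.982) and Rassf5 (0.981), and for Ccl25 Gna11 (0.98), Aldh9a1 (0.976), Fahd1 (0.973), Ppp2r5d (0.973) and Mapkap1 (0.967). Among the members, Itgae followed Gpr18 at 0.956 and Itgb7 at 0.931, and S1pr1 at 0.415, while Ccr9 followed Itgb7 at 0.968. These libraries share preparation and cell content, so the values describe likeness of pattern and nothing more. Within the 6 unstimulated CD8 libraries Itgae was closest to Sp3 (0.986), Cd200 (0.968), Apol7e (0.964), Ppp1r11 (0.962) and Gmfg (0.961), and within the 6 IL-15 libraries to Apol9a (0.994), Leprotl1 (0.993), Tnfsf13b (0.993), Acsbg1 (0.991) and Armc7 (0.99).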

How the data were processed

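Poly(A) RNA libraries were made with NEBNext Ultra II RNA (tissue, LPL, IEL) or NEBNext Single Cell/Low Input kits (CD8), per the labels' protocols. The deposited bulk files hold raw read counts per Entrez gene, made by the authors with featureCounts, with HISAT2 named as aligner per the file headers, whereas the submitters' processing notes list TopHat and mm10. CD8 values are deposited as normalised signal by Ensembl ID. The authors' scaling is not described in the sources used here, and the values look like counts divided by a factor per library. Their processing notes list STAR, featureCounts, DESeq2 and both mm10 and mm39, with no role given. Strand use is not given in the sources used here, so genes that overlap a member may share its reads. Symbols were found for 25275 Entrez IDs (99.17% of reads) and 51486 Ensembl IDs.

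The 12 bulk libraries were fitted as 6 groups with edgeR 4.0.16 (quasi-likelihood, TMM, filterByExpr, Benjamini-Hochberg adjustment over all genes at 0.05). CPM used TMM factors, and log2 ratios a pseudocount of 0.5. CD8 values were tested with limma 3.58.1 (trend) after log2(value + 1), over genes whose mean reached 5. DESeq2 1.42.0, other filters, pseudocounts, a replicate block and leaving out each library were alternatives. The fits were also run on simulated data, and the share of set changes recovered there is not given here. A KO comparison without a call therefore does not show equal levels. Named pathway genes were those with the smallest p, up to 4 per list and comparison past the threshold and otherwise 2, and like-patterned genes the 5 with the highest r. The members and lists were chosen with earlier results of these data known.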

Additional observations from a re-analysis of the deposited data

How the results depend on the processing

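The cause of no change below was tested. With 1 library left out, genes past the threshold ranged from 4685 to 6372 for IEL against tissue, 6602 to 7848 for LPL against tissue and 1267 to 2561 for IEL against LPL, and members from 2 to 5, 2 to 3 and 2 to 7. For KO against WT, gene counts ranged from 0 to 3 in tissue, 0 to 4 in LPL and 0 to 1 in the IL-15 set, and members stayed at 0. DESeq2's Wald test called 6 genes in tissue, 1 in LPL and 1 in IEL for KO against WT, and 7 members for IEL against LPL. Without a filter on low values the IL-15 set had 3 genes. Same-numbered WT and KO bulk libraries correlated, after group means were removed, at 0.668 (tissue), 0.347 (LPL) and 0.532 (IEL), which with 2 pairs cannot show pairing, and the CD8 values lay between -0.057 and 0.001. The replicate block turned no KO comparison of a member into a call. With the block over 12 libraries, 3 member calls between preparations were lost: Cxcr6 and Cxcl16 for IEL against tissue (log2 2.71 and -0.76, adjusted p = 0.0694 and 0.0688) and Ccr9 for IEL against LPL (2.18, 0.077). In the 4 libraries of a preparation alone with the replicate block, added after seeing the data, IEL had 73 genes past the threshold and Ccl25 in tissue a KO minus WT value of -0.02. Count tests of reads recovered from the CD8 tables were planned and not run. A fit that leaves 1 library in a group assumes that it varies like the others.

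Signs that turned when 1 library was left out belonged to differences that had not passed. As ranges of log2 KO minus WT in tissue they were Itgae -0.48 to 0.88, Itgb7 -0.97 to 0.14, Itga4 -0.32 to 0.67, Ccl25 -0.40 to 0.32, Cxcr6 -0.14 to 0.33, Cxcl16 -0.29 to 0.63 and Gpr18 -1.46 to 0.41. In LPL they were Itgb7 -2.90 to 0.24, Itga4 -3.42 to 0.34, Cdh1 -0.31 to 0.67, Cxcl16 -0.71 to 0.18 and S1pr1 -4.56 to 0.30. In IEL they were Itgae -0.99 to 0.91, Itgb7 -1.24 to 0.99, Itga4 -1.26 to 0.72, Cdh1 -0.22 to 0.21, Ccr9 -1.15 to 1.22, Cxcr6 -2.03 to 1.15, S1pr1 -1.05 to 0.86 and Gpr18 -1.05 to 0.89. Unstimulated CD8 cells had Itgb7 -2.66 to 0.88, Ccr9 -0.19 to 0.53, Cxcr6 -0.44 to 0.33 and Gpr18 -0.18 to 0.96. The IL-15 set had Itgb7 -0.15 to 0.19, Itga4 -0.80 to 0.43, Cdh1 -0.11 to 0.29, Ccr9 -0.30 to 0.14, Ccl25 -0.27 to 0.01 and S1pr1 -0.67 to 0.74. Between preparations, IEL minus tissue gave Ccl25 -0.34 to 0.02 and S1pr1 -0.36 to 1.05. LPL minus tissue gave Itgb7 -0.66 to 0.90, Itga4 -0.19 to 1.68, Ccr9 -0.01 to 1.43, Cxcr6 -2.65 to 1.07, S1pr1 -2.47 to 0.44 and Gpr18 -1.61 to 0.29, and IEL minus LPL gave Cdh1 -0.36 to 0.12. The ratio to the reference turned for Itgae between IEL and LPL (-0.15 with Cd3e alone) and for Ccl25 between LPL and tissue (0.80 with Epcam alone).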
